A study of Homo sapiens with 6 samples.

Results

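The 500 widest accessible regions of KMS-11 cells were taken from 59853 regions found in all 6 libraries of an ATAC-seq experiment. Peaks with a −log10 q of at least 2 on chromosomes 1 to 22 were merged over the 6 peak lists into regions. For each region, the bases covered by such peaks were counted in every library, and the regions with the highest median over the 6 libraries were kept. The members were thus chosen by covered bases, and their size is a description, not a finding. The difference between the groups had no part in the choice. The members had a median width, in covered bases, of 1993 to 3137.5 bp with a median of 2171 bp, beside a median of 605.5 bp over all regions found in the 6 libraries.

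The knockdown cells carried a lentiviral vector with a guide against ATF4 (LentiV2_ATF4g3), in 3 libraries called ATF4 knockdown here. The controls, in 3 libraries, have the treatment label LentiV2, which names the vector and does not say whether it held a control guide. Both groups are the human line KMS-11, labelled plasma cell myeloma, with the genotype label WT, and the libraries of each group are labelled as biological replicates. One guide in one line was used, and the labels do not say how the guide acts or how long the cells carried it. ATF4 is a transcription factor of the integrated stress response, which turns on genes of amino acid supply and of protein folding.

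In ATAC-seq the Tn5 transposase cuts DNA that is not wrapped in nucleosomes, so a peak marks a stretch where the DNA is accessible. Most accessible stretches are about as long as the gap left by a bound factor or a missing nucleosome. Wider stretches are known mainly from promoters in CpG islands and from clusters of neighbouring enhancers, where open DNA and accessible linkers lie side by side. A summit is the highest point of a peak, and 1 wide peak can hold several summits.

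The knockdown libraries were the shallower ones. The most common local background of each list, which moves with sequencing depth, was a pileup of 2.51, 2.15 and 2.51 in the ATF4 knockdown and 3.19, 2.79 and 3.52 in the control. Peaks covered 49.4 ± 1.6 Mb in knockdown libraries and 60.4 ± 1.2 Mb in control libraries (SD, n = 3 each). Depth and group cannot be told apart here, and the part of depth in the results below was not tested. The region over ATF4 itself ranked 1188 and is not among the 500, with 1616, 1585 and 1652 bp in knockdown libraries and 2036, 1913 and 1862 bp in control libraries. Whether ATF4 RNA or protein fell cannot be read from open DNA. Of 10 plasma cell marker genes, 6 had a region found in all 6 libraries over a transcription start, and TNFRSF17, SLAMF7, POU2AF1 and JCHAIN had none. The same count was 2 of 6 for B cells before the plasma stage (PAX5 and SPIB), 0 of 6 for T and NK cells, 0 of 5 for myeloid cells and 0 of 6 for epithelial and stromal cells.

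The upstream sequence of the regions that the results turn on is rich in the dinucleotide CpG. The 250 bases before the annotated transcription start are printed for the 3 widest regions with a start, for regions at the ends of the difference between the groups and for SDC1, the plasma cell marker with the widest region. They come from RefSeq (GRCh38.p14, the assembly of hg38), read 5′ to 3′ in the direction of the gene, with every CpG in capitals. The first set belongs to the widest regions. UBTF is a factor of ribosomal RNA transcription, TNK2 a tyrosine kinase and SMARCA2 an ATPase of the SWI/SNF chromatin remodellers.
UBTF, chr17:44219676-44219925, minus strand: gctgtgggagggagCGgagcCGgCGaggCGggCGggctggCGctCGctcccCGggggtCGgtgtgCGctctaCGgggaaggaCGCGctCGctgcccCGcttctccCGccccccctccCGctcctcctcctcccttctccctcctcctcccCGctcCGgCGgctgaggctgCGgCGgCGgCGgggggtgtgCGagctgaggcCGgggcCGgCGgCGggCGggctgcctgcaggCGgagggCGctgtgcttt
TNK2, chr3:195908552-195908801, minus strand: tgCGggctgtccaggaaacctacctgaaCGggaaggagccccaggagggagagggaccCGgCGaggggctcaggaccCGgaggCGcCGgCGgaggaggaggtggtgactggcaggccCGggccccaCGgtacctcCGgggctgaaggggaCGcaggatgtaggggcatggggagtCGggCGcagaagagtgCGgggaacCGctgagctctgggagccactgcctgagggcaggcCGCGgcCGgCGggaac
SMARCA2, chr9:2015097-2015346, plus strand: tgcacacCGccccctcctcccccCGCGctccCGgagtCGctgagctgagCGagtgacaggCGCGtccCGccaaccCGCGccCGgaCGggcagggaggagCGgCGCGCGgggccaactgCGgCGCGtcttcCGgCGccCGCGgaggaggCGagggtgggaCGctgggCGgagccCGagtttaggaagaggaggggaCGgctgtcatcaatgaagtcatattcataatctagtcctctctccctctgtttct

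The second set belongs to regions that were called narrower in the knockdown in unscaled bases, at the kinase gene DYRK1A and the zinc finger factor gene ZIC2.
DYRK1A, chr21:37366523-37366772, plus strand: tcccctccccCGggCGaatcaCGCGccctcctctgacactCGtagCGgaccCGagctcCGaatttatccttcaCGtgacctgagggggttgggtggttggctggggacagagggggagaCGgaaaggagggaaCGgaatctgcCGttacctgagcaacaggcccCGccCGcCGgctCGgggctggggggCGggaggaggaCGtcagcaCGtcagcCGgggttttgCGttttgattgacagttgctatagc
ZIC2, chr13:99981534-99981783, plus strand: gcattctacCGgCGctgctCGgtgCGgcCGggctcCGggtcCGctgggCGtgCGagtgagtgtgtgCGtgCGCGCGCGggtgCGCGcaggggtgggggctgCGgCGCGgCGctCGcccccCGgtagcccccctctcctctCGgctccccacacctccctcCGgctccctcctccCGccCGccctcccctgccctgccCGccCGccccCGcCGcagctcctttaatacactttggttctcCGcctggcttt

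The third set belongs to regions with a small unadjusted p on the wider side that did not pass the test, at the uridine kinase-like gene UCKL1 and at CITED2, a partner of the coactivators p300 and CBP.
UCKL1, chr20:63956417-63956666, minus strand: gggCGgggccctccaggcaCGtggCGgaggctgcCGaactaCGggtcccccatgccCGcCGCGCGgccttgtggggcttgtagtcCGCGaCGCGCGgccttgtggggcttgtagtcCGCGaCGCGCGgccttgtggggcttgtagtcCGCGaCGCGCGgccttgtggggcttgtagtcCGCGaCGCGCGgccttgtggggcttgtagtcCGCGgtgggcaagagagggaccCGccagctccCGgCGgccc
CITED2, chr6:139374649-139374898, minus strand: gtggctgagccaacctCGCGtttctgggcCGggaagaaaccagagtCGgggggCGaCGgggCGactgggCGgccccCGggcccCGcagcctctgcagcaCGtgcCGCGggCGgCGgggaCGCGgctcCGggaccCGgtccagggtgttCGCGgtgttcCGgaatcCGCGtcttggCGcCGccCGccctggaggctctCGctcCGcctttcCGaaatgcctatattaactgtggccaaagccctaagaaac

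SDC1 encodes syndecan-1 (CD138), the surface protein by which plasma cells are recognised.
SDC1, chr2:20225131-20225380, minus strand: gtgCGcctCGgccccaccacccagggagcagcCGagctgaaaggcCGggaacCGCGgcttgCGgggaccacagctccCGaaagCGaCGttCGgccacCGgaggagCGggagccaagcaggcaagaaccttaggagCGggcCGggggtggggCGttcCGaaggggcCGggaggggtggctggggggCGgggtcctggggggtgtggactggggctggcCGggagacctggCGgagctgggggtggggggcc

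These 8 runs held 20 to 34 CpGs. The UCKL1 run repeats a stretch of 20 bases in 5 copies, while no stretch of that length occurs more than once in the other 7. The GC box GGGCGG, searched on both strands, lies in 7 of the 8 runs, all but that of TNK2. The E-box CACGTG lies in those of DYRK1A, UCKL1 and CITED2.

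Over all members the same holds for base composition. A protein-coding start of the RefSeq promoter table lay in 327 members, and the 300 bases around these starts (250 before and 50 after) had a median GC content of 70% and a median of 32 CpGs. The 9254 starts in other regions found in all 6 libraries had a median of 67.0% GC and 28 CpGs. Over all 21155 promoters listed, the medians were 62.7% GC and 21 CpGs. The GC box GGGCGG was in 79.2% of member promoters, in 6942 of the 9254 promoters in other regions and in 56.6% of all promoters. The NF-Y box CCAAT was in 28.1% of member promoters, 36.0% of those in the other regions and 34.4% of all. The ETS site CCGGAAG was in 11.6%, 19.2% and 12.9% in the same order, and the YY1 site AAGATGGC in 1.83%, 5.38% and 3.50%.

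The other motifs searched include those of ATF4 and NF-kB, which the title of the study names. The ATF4 composite site TGATGNAAN was in 3 of 327 member promoters (0.917%), beside 1.32% of promoters in other regions and 2.70% of all. The cyclic AMP response element TGACGTCA was in 10 (3.06%, beside 3.47% and 2.31%) and the NF-kB site GGGANTTCC in 3 (0.917%, beside 2.50% and 2.08%). The AP-1 site TGANTCA was in 5 (1.53%, beside 3.96% and 6.08%) and the extended MAF element GCTGAGTCA, which overlaps it, in 1 (0.306%, beside 0.411% and 0.487%). The E-box CACGTG was in 28 (8.56%, beside 10.1% and 8.25%) and the TATA box TATAAA in 26 (7.95%, beside 4.74% and 9.51%), so for these and the cyclic AMP response element the members' share lay between both others. All motifs were searched on both strands, a match is a run of letters and not a bound site, and a window without a match says nothing of the factor.

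The wide regions lay mainly over the ends of genes. Of the 500, 360 (72%) overlapped an annotated gene end, 21 (4.2%) lay within 1 kb of one, 73 (14.6%) lay deeper inside a gene and 46 (9.2%) between genes. The shares over all regions found in the 6 libraries were 17.3%, 3.84%, 38.6% and 40.2%. Of the 477 members outside chromosome 8, which the promoter table does not cover, 68.6% held a protein-coding start, beside 16.9% of all such regions. A start of a long noncoding RNA lay in 118 of them, and in 28 it was the only start.

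Many members were shared by neighbouring genes. A total of 45 members (9.43%) held the starts of 2 or more protein-coding genes, beside 1.81% of all regions found in the 6 libraries outside chromosome 8, and the region at PTP4A1 held 3. The members held the starts of 373 protein-coding genes in all, and they overlapped 538 of 19122 such genes (2.81%). Of the 45, 5 held only genes of replication-dependent histones, the pairs H2AC16 and H1-5, H2BC18 and H3C13, H2AC11 and H2BC11, H2AC19 and H3C15, and H2AC18 and H3C14. These were singled out after their values were seen, and histone genes of one class are near-identical copies, to which reads cannot always be assigned.

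A total of 4 genes were overlapped by 2 members each, namely SDC1, RUNX1, CTDSP2 and PPP1R37. At SDC1 the wider region (rank 26, chromosome 2, 20223306 to 20226128) lay over the start and the other (rank 341, 20212331 to 20214815) inside the gene. At RUNX1, a transcription factor of blood cells, both lay inside the long gene, and the wider one held an internal promoter (rank 126, chromosome 21, 34887881 to 34890358). At the other extreme, 19 members (3.8%) lay more than 100 kb from any annotated gene end, beside 11376 of the 59853 regions found in the 6 libraries. Some of these were internal promoters of long genes, such as those of KLF12, ADGRL2 and DLG2. The most remote (chromosome 4, 180057844 to 180059906) lay 1388 kb from TENM3 and covered 2023.5 bp. Per 1000 regions found in the 6 libraries, chromosome 13 held 15.3 members and chromosome 11 held 5.46, the highest and lowest values of the 22 chromosomes.

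**Figure D1:**
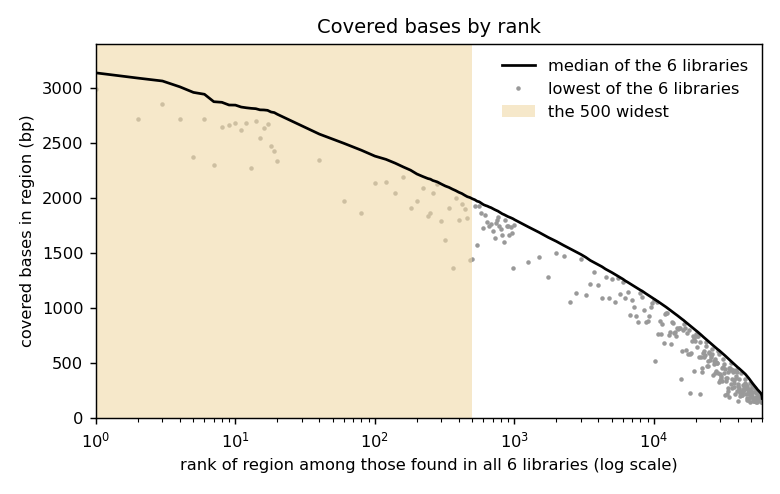
Covered bases in each region (vertical axis, bp) against its rank among the 59853 regions found in all 6 libraries (horizontal axis, log scale). The line is the median of the 6 libraries, grey points the lowest library of sampled regions, and the shaded ranks are the 500 widest, which run from 3137.5 to 1993 bp.

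The limit at 500 cut a smooth curve, as the plot of covered bases by rank shows. The regions just inside it, at PRPF6, PRR15 and MEX3C, had medians of 1995, 1995 and 1993 bp. Those just outside, near CAMK1G, in CTIF and at GMEB2, had 1992.5 bp each. PRPF6 encodes a splicing factor, MEX3C an RNA-binding protein and GMEB2 a transcription factor.

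The widest region of all lay over the start of UBTF (chromosome 17, 44218228 to 44221641, hg38). Peaks covered 3019, 2993 and 3085 bp there in knockdown libraries and 3237, 3330 and 3190 bp in control libraries, so the groups did not overlap. TNK2 (chromosome 3, 195906841 to 195910090) came next with 2926, 2719 and 3101 bp in knockdown libraries and 3094, 3241 and 3086 bp in control libraries, which overlap. At IRF2, an interferon regulatory factor, the region lay over a gene end (chromosome 4, 184472263 to 184475414) and covered 2940, 2856 and 3071 bp in knockdown libraries and 3056, 3115 and 3098 bp in control libraries. The widest region away from a gene end lay inside RASA3, a GTPase-activating protein for Ras (chromosome 13, 114065137 to 114068601, 64.0 kb from the gene's nearer end). It covered 2899, 2717 and 2964 bp in knockdown libraries and 3200, 3057 and 3109 bp in control libraries.

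The rest of the 15 widest lay over ends of genes with unlike roles. They were the 14-3-3 protein gene YWHAZ, the plexin receptor gene PLXNC1, the transcription factor genes TFAP4 and ETV1, the p53-inducible gene TP53I13, the methyl-lysine reader gene L3MBTL3, the glycolytic enzyme gene GAPDH, the intermediate filament gene VIM, the RNA-binding protein gene SAMD4A and the transporter gene SLCO5A1, along with SMARCA2. Their mean widths in the knockdown were 87.9% (SMARCA2) to 98.5% (TP53I13) of the control mean. At SMARCA2 (chromosome 9, 2014679 to 2017877) the spread within the knockdown was wide, with 3025, 2648 and 2369 bp beside 3160, 2895 and 3098 bp in control libraries. At VIM (chromosome 10, 17228077 to 17230941) it was narrow, with 2684, 2718 and 2813 bp in knockdown libraries and 2862, 2827 and 2850 bp in control libraries. Of the 15, 8 had no overlap between the groups, and in all 8 the knockdown was the lower group, as it was in 30.3% of all regions.

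**Figure D2:**
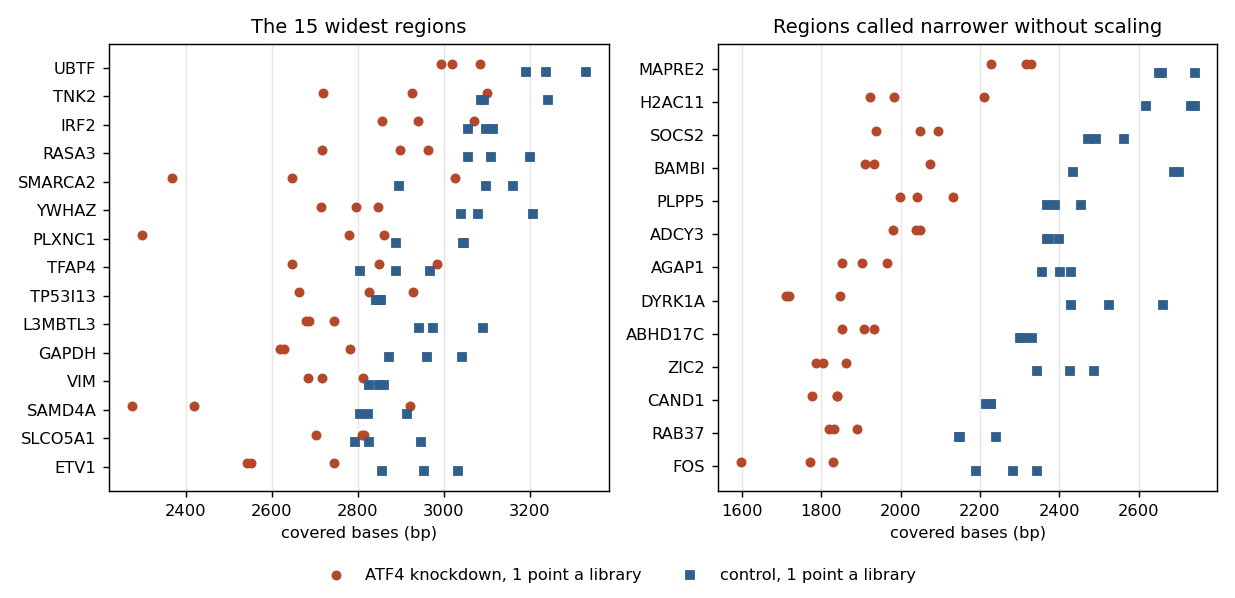
Covered bases (horizontal axis, bp) in each library for the 15 widest regions (left) and for the 13 regions called narrower in unscaled bases (right), with ATF4 knockdown as circles above and control as squares below in each row. On the left the groups overlap in 7 of 15 regions, and on the right every knockdown circle of a row lies to the left of its control squares. H2AC11 shares its region with H2BC11, and PLPP5 with NSD3.

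In bases as they stand, the wide regions were slightly narrower in the knockdown. The median width over the 500 was 2104.5, 2090 and 2113 bp in knockdown libraries and 2249, 2198 and 2279 bp in control libraries, or 2102.5 ± 11.6 bp and 2242 ± 41.0 bp (SD, n = 3 each). No knockdown library reached the lowest control library. Region by region, the knockdown kept a median of 94.3% of the control width (25th to 75th percentile 88.9% to 98.1%), beside 87.1% over all regions found in the 6 libraries. The range was 67.3% near ZNF655 to 116% at NDUFAF6. In bases, the median difference was −132 bp over the members and −87.3 bp over all regions. In 225 members (45.0%) all 3 knockdown libraries lay under all 3 control libraries, a pattern that 30.3% of all regions showed. In 7 (1.4%) they lay above, beside 1.11% of all regions.

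The share of width kept was lower beyond the first 1000 ranks. The median was 94.3% for the 500 widest, 94.5% for the next 500, 93.5% from there to rank 5000, 90.9% from there to rank 20000 and 83.3% for the rest, with no test across ranks. In bases the median difference was largest in the widest regions, at −132, −103.5, −99.5, −96.3 and −82.3 bp in the same order. Members over a gene end kept a median of 95.1%, those deeper inside a gene 92.5% and those between genes 93.6%.

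**Figure D3:**
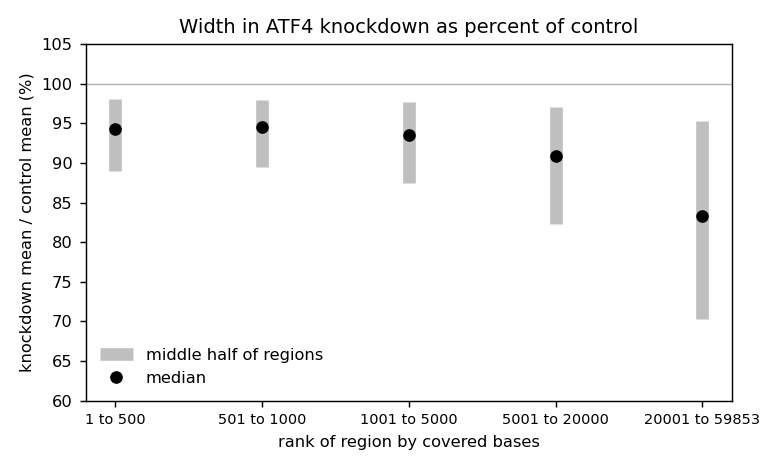
Mean covered bases in ATF4 knockdown as percent of the control mean (vertical axis, cut at 60%) by rank of the region (horizontal axis). Points are medians over regions and bars run from the 25th to the 75th percentile. The median is 94.3% in the 500 widest and 83.3% in the last group of ranks.

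No member passed the test once width was set against the total covered length of each library. With that scaling, limma over all 59853 regions called 0 members narrower and 0 wider at an adjusted p of 0.05, beside 0% of all regions in either direction, and the smallest adjusted p of a member was 0.0586. At an unadjusted p under 0.05, 5 of 500 members were narrower (5.56% of all regions were) and 334 of 500 wider (15.9% of all regions). The median scaled log2 difference was 0.21 over the members and 0.086 over all regions, while in unscaled bases it was −0.08 over the members and −0.20 over all. The sign of the members' median thus follows the scaling, and only 34 of 500 members were below 0 when scaled, against 445 when unscaled. Scaled, with peaks of a −log10 q of at least 5, limma called 376 of 500 members wider, beside 24.6% of all regions. It called 0 narrower, beside 1.04%. Wider in the scaled fits means wider relative to the library's total covered length, not more covered bases. UBTF, for one, had a scaled log2 difference of 0.19 although it covered fewer bases in every knockdown library than in any control library.

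In unscaled bases, limma called 13 members narrower, or 2.6%, beside 1.06% of all regions, and 0 wider, beside 0.0134%. At an unadjusted p under 0.05 these counts were 166 and 5 of 500 members, beside 21.3% and 0.59% of all regions. The largest difference among the 13 was at DYRK1A (chromosome 21, 37365747 to 37368462, over a start), which covered 1848, 1719 and 1711 bp in knockdown libraries and 2662, 2524 and 2430 bp in control libraries. The knockdown kept 69.3% of the control width there (log2 difference −0.53, SE 0.05, limma adjusted p = 0.0365). ZIC2 (chromosome 13, 99979978 to 99982641) covered 1805, 1787 and 1862 bp in knockdown libraries and 2488, 2344 and 2428 bp in control libraries (log2 difference −0.41, SE 0.04, limma adjusted p = 0.0365). Both remained below 0 when scaled, by −0.24 and −0.12, and neither passed there (limma adjusted p = 0.0779 and 0.115), but ZIC2 was above 0 (0.057) with peaks of a −log10 q of at least 5.

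Among the other 11, the immediate early gene FOS (chromosome 14, 75276966 to 75279476) covered 1597, 1830 and 1772 bp in knockdown libraries and 2343, 2189 and 2284 bp in control libraries. BAMBI, a decoy receptor of the TGF-beta pathway (chromosome 10, 28676715 to 28679416), covered 1932, 1910 and 2073 bp in knockdown libraries and 2701, 2434 and 2690 bp in control libraries. At SOCS2, a suppressor of cytokine signalling (chromosome 12, 93569453 to 93572122), values were 2048, 1938 and 2095 bp in knockdown libraries and 2563, 2492 and 2472 bp in control libraries. The shared start region of the histone genes H2AC11 and H2BC11 kept 75.6% of the control width, and that at the Arf GTPase-activating protein gene AGAP1 79.6%.

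The remaining 6 were at the microtubule-binding protein gene MAPRE2, the lipid phosphatase gene PLPP5, the adenylyl cyclase gene ADCY3, the hydrolase gene ABHD17C, inside RAB37, and 163 kb from CAND1, and kept 81.8% to 85.6%. The region at PLPP5 also held an end of NSD3. Scaled by total covered length, 7 of the 13 were below 0 by any amount and 6 were at or above 0, and none passed. Without any one of knockdown 1, knockdown 2 and the 3 control libraries limma called 0 members narrower. Without knockdown 3 it called 20 of 500, beside 1.16% of all regions.

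The region with the lowest share kept was not among these calls. It lay 1.46 kb from ZNF655, a zinc finger gene (chromosome 7, 99577911 to 99580809), and covered 1457, 1824 and 1444 bp in knockdown libraries and 2543, 2220 and 2262 bp in control libraries. The groups did not overlap, and neither fit passed (log2 difference −0.29 scaled, SE 0.11, limma adjusted p = 0.185, and −0.58 unscaled, limma adjusted p = 0.0586). In total, 23 members (4.6%) kept less than 80% of the control width, beside 34.5% of all regions found in the 6 libraries.

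In unscaled bases, 7 members (1.4%) were wider in every knockdown library than in any control library, beside 1.11% of all regions. These 7 were at CITED2, HEXIM1, JUND, CABLES1, XKR4 and NDUFAF6 and near TNFRSF13B. CITED2 (chromosome 6, 139373265 to 139376037) covered 2646, 2658 and 2654 bp in knockdown libraries and 2510, 2462 and 2199 bp in control libraries. JUND, the gene of an AP-1 factor (chromosome 19, 18280034 to 18282270), covered 2180, 2190 and 2145 bp in knockdown libraries and 1875, 1898 and 2054 bp in control libraries. HEXIM1, an inhibitor of the elongation kinase P-TEFb (chromosome 17, 45147422 to 45149988), covered 2319, 2337 and 2339 bp in knockdown libraries and 2243, 1900 and 2316 bp in control libraries. The last region (chromosome 17, 16988003 to 16990107) lay 15.9 kb from TNFRSF13B, which encodes the receptor TACI for BAFF and APRIL. It covered 2013, 2080 and 2044 bp in knockdown libraries and 1983, 1922 and 1941 bp in control libraries.

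None of these passed the test in either fit. The 3 members with the smallest p on the wider side, TNFRSF13B, UCKL1 and CITED2, had scaled log2 differences of 0.36 (SE 0.04), 0.34 (SE 0.04) and 0.44 (SE 0.05), all with a limma adjusted p of 0.0586. Unscaled, their log2 differences were 0.07, 0.05 and 0.15, with limma adjusted p of 0.258, 0.414 and 0.172. With peaks of a −log10 q of at least 5 all 3 were called wider in the scaled fit. CABLES1, XKR4 and NDUFAF6, along with JUND, are named because the group is small, after their values were seen.

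Several transcription factor genes of the plasma cell and B lineage were overlapped by a member. Of 32 such factors, 6 (18.8%) were overlapped by a member, beside 2.81% of all protein-coding genes. They were IRF2, POU2F1, RUNX1, BACH2, KLF13 and MEF2C. POU2F1 (OCT1, chromosome 1, 167219913 to 167222647) covered 2666, 2670 and 2657 bp in knockdown libraries and 2702, 2690 and 2713 bp in control libraries, and kept 98.6%. RUNX1 covered 2362, 2130 and 2337 bp at its wider region in knockdown libraries and 2340, 2239 and 2337 bp in control libraries. MEF2C kept 87.7% of the control width, and at BACH2, a repressor of plasma cell fate, the values overlapped. None of these was called in either direction. Among the plasma cell marker genes, the factors IRF4, XBP1 and PRDM1 had their widest region over a start at ranks 3819, 12875 and 24436. POU2AF1 had no such region.

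Of 30 plasma cell surface and myeloma genes, 2 (6.67%) were overlapped, SDC1 and MAF. The wider region of SDC1 covered 2701, 2678 and 2252 bp in knockdown libraries and 2643, 2692 and 2794 bp in control libraries, with knockdown 3 as the low one. Its inner region covered 1872, 2050 and 1907 bp in knockdown libraries and 2143, 2265 and 2354 bp in control libraries, so that the groups were apart there. MAF, a transcription factor active in a share of myelomas, covered 1976, 1906 and 1988 bp in knockdown libraries and 2022, 2008 and 2130 bp in control libraries. Neither gene passed the test at any of its regions.

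Immediate early genes, which cells switch on within minutes of a signal, had 8 of 31 (25.8%) overlapped by a member. They were GADD45A, GADD45B, ATF3, IER3, IER5, JUND, ZFP36L2 and FOS. The share of width kept differed among them, at 76.3% at FOS and 83.6% at ATF3, but 99.9% at IER5 and 112% at JUND. GADD45B (chromosome 19, 2474575 to 2477406) covered 2021, 2382 and 2306 bp in knockdown libraries and 2747, 2029 and 2327 bp in control libraries. ATF3, a stress-induced bZIP factor, had its wide region inside the gene (chromosome 1, 212607212 to 212609749), with 1668, 1797 and 2309 bp in knockdown libraries and 2283, 2265 and 2360 bp in control libraries. IER3 shares its region with FLOT1 and kept 93.6%.

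Of 33 ATF4 targets and stress genes, 2 (6.06%) were overlapped. CEBPB, a bZIP partner of ATF4 (chromosome 20, 50190002 to 50192549), covered 2155, 2307 and 2178 bp in knockdown libraries and 2548, 2429 and 2527 bp in control libraries. HERPUD1, a factor of protein degradation at the endoplasmic reticulum (chromosome 16, 56930775 to 56933231), covered 1902, 1366 and 2048 bp in knockdown libraries and 2238, 2267 and 2434 bp in control libraries. Both were lower in every knockdown library, and neither passed in unscaled bases (limma adjusted p = 0.0786 and 0.191). Scaled, their log2 differences were 0.11 and −0.11 (limma adjusted p = 0.234 and 0.662).

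Of 25 NF-kB genes and targets, 3 (12.0%) were overlapped: the subunit gene NFKB1, the adhesion molecule gene ICAM1 and the chemokine receptor gene CXCR4. ICAM1 (chromosome 19, 10269510 to 10272078) covered 2145, 2046 and 2373 bp in knockdown libraries and 2243, 1983 and 2036 bp in control libraries. NFKB1 (chromosome 4, 102500396 to 102502520) kept 99.2% and CXCR4 (chromosome 2, 136116203 to 136118357) 91.3%. The values of ICAM1 and NFKB1 overlapped between the groups, and CXCR4 was lower in every knockdown library.

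The chromatin list had 3 of 25 genes overlapped (12.0%), among them HEXIM1 and KDM6B, and the signalling feedback list 4 of 24 (16.7%), among them SPRY1, SPRED2 and SKIL. SPRY1, an inhibitor of receptor tyrosine kinase signalling (chromosome 4, 123397166 to 123399680), was the steadiest of these, with 2499, 2506 and 2489 bp in knockdown libraries and 2510, 2499 and 2511 bp in control libraries. SPRED2 covered 2432, 1873 and 2465 bp in knockdown libraries and 2556, 1908 and 2602 bp in control libraries, with replicate 2 the lowest in each group.

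In other lists no gene was overlapped by a member. These were 25 cytosolic ribosomal protein genes and 25 cell cycle genes, all of which had a region found in the 6 libraries. The lists of 12 markers each of T and NK cells, of myeloid cells and of epithelial and stromal cells had no overlapped gene either, while 8, 5 and 10 of their genes had such a region. The lists were chosen with earlier results of these data known, and no test of enrichment was made.

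The members held several summits each. The mean number per region over the 6 libraries was 3.33 to 10.5 with a median of 6.5, beside a median of 1.67 over all regions found in the 6 libraries. Summit number moves with width, so it is not independent of the choice of members. The most were at ETV1, with 10, 10 and 9 in knockdown libraries and 13, 10 and 11 in control libraries. SINHCAF, a part of the SIN3 corepressor (chromosome 12, 31323614 to 31326568), had 9, 9 and 10 in knockdown libraries and 11, 11 and 12 in control libraries. UBTF had 8, 11 and 10 in knockdown libraries and 12, 10 and 10 in control libraries. The fewest were in a region inside KCNK12, with 3, 3 and 5 in knockdown libraries and 3, 3 and 3 in control libraries, then at SKIL, with 5, 4 and 5 in knockdown libraries and 4, 4 and 4 in control libraries.

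Fewer summits were listed in the knockdown. The mean per member was 6.03 ± 0.16 in knockdown libraries and 7.06 ± 0.24 in control libraries (SD, n = 3 each), or 85.4% of the control, beside 82.7% over all regions found in the 6 libraries. Per covered kb the members had 2.82 ± 0.05 summits in knockdown libraries and 3.07 ± 0.05 in control libraries. Over all regions these values were 2.81 ± 0.04 and 2.90 ± 0.05. Neighbouring summits lay a median of 326, 317 and 320 bp apart in knockdown libraries and 294, 300 and 285 bp apart in control libraries. Over the members, the groups did not overlap in any of these measures. Summits of all regions lay 289, 283 and 284 bp apart in knockdown libraries and 270, 275 and 267 bp in control libraries, also without overlap.

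**Figure D4:**
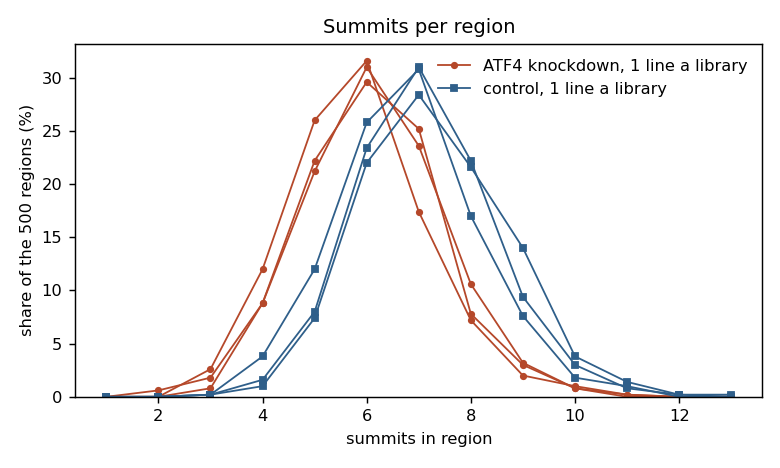
Share of the 500 regions (vertical axis, percent) by number of summits (horizontal axis), 1 line per library, ATF4 knockdown in red with circles and control in blue with squares. The knockdown lines peak at 6 summits and the control lines at 7.

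By limma on log2 summit number over 11028 regions, 20 members (4.0%) had fewer summits in the knockdown, beside 3.06% of all, and 0 had more, beside 0.163%. At an unadjusted p under 0.05 the counts were 119 and 1 of 500 members, beside 18.2% and 0.263% of all. Of the 20 calls, 14 rest on regions whose summit number was the same in every library of a group and 1 lower in the knockdown, such as the nuclear lamina gene LMNB1 with 4, 4 and 4 in knockdown libraries and 5, 5 and 5 in control libraries. A whole-number measure with no spread gives very small p-values, so these calls say little about the precision of the difference.

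The other 6 calls had a spread and larger differences. ABTB2 (chromosome 11, 34356958 to 34359550) had 4, 5 and 5 summits in knockdown libraries and 8, 8 and 9 in control libraries (log2 difference −0.84, limma adjusted p = 0.0436). INTS6, a subunit of the Integrator complex (chromosome 13, 51451472 to 51453894), had 5, 6 and 5 in knockdown libraries and 8, 8 and 8 in control libraries (log2 difference −0.59, limma adjusted p = 0.0489) while it kept 98.4% of its width. A region near RCSD1 had 5, 5 and 6 in knockdown libraries and 8, 8 and 8 in control libraries. The others were at the proteasome adaptor gene ECPAS, at GAPDH and at PTDSS1, an enzyme of phosphatidylserine synthesis. When summit numbers were scaled by the total of each library, 0 members passed in either direction (15 fewer and 87 more at an unadjusted p under 0.05). When regions without any spread were left out, a choice made after seeing the data, 89 of 479 members had fewer summits, beside 13.1% of all regions in that fit, and 0 had more, beside 0.0206%. Without knockdown 1, 2 or 3 the number with fewer summits was 33, 31 or 33 of 500, beside 5.59%, 6.09% or 6.74% of all regions. The number with more was then 2, 3 or 0 of 500, beside 0.481%, 0.499% or 0.444%.

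Where width differed, bases were mostly missing in the knockdown. Of the 500, 290 (58%) had bases covered in all 3 control libraries and in no knockdown library, 19.995 kb in all, while 38.9% of all regions had such bases. These bases were 1.63% of the members' merged width, beside 2.49% over all regions. The reverse held in 45 members (9.0%), for 2.34 kb, beside 3.24% of all regions, and 191 members had neither. Of the bases lost in this sense 71.0% lay outside the outermost bases covered in all 6 libraries, at the rims of the regions, beside 94.3% over all regions. The most were lost at AGAP1 (442 bp), FOS (421 bp), the region of H2AC11 (416 bp) and ZIC2 (388 bp), and the most gained at PTMA (270 bp). These 5 were singled out after their values were seen. Bases covered in all 6 libraries made up 77.0% of the members' merged width, beside 56.9% over all regions. The covered bases formed a single unbroken block in 267, 217 and 256 members in knockdown libraries. In control libraries they did so in 345, 248 and 383 members, and the groups overlap.

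Around transcription starts the members were open on both sides, and further on the side of the gene. Of the 327 starts, 98.5% to 99.4% were covered in knockdown libraries and 99.4% to 100% in control libraries. At 1000 bp upstream, 46.0% were covered in the knockdown and 52.8% in the control as means of 3 libraries, and at 1000 bp downstream 59.8% and 68.2%. At starts in the other regions, 6.51% were covered in the knockdown and 8.47% in the control at 1000 bp upstream, and 10.6% and 14.1% at 1000 bp downstream. From the start, the outermost covered base of the region lay a median of 963, 1011 and 1009 bp upstream in knockdown libraries. In control libraries it lay 1035, 1026 and 1038 bp upstream, and the groups do not overlap. Downstream it lay 1214, 1261 and 1221 bp away in knockdown libraries and 1274, 1248 and 1273 bp in control libraries, which overlap. Such a reach can cross uncovered gaps. In the other regions the reach was 468.5, 468 and 480 bp upstream in knockdown libraries and 524, 499 and 534 bp in control libraries. Downstream it was 556, 553 and 573 bp in knockdown libraries and 616, 592 and 629 bp in control libraries. The groups were apart on both sides there.

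**Figure D5:**
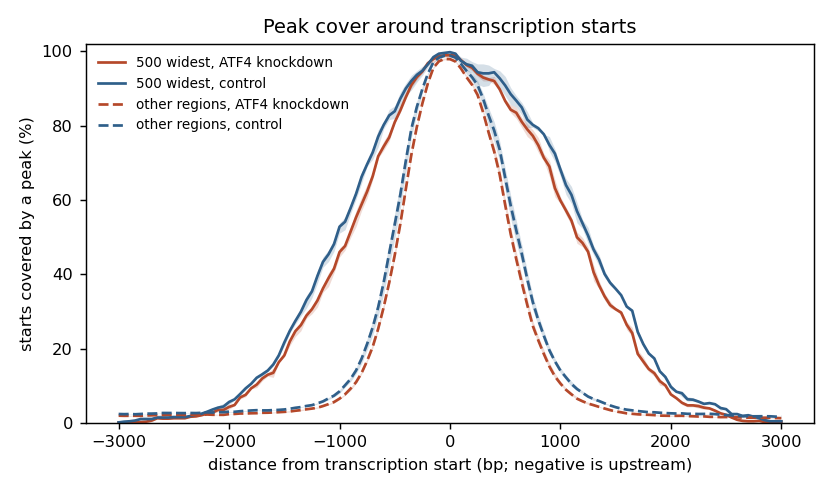
Share of transcription starts covered by a peak (vertical axis, percent) by distance from the start (horizontal axis, bp, negative upstream). Lines are means of 3 libraries and bands their range, red for ATF4 knockdown and blue for control, solid for the 327 starts in the 500 widest and dashed for 9254 starts in other regions. At 1000 bp downstream 59.8% of the members' starts are covered in knockdown and 68.2% in control.

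The members were high in pileup but not in fold enrichment over the local background. Pileup over background was read at the summit with the highest fold enrichment of each region. This height had a median over the members of 65.4 ± 4.7 in knockdown libraries and 86.7 ± 9.0 in control libraries (SD, n = 3 each). Over all regions it was 16.3 ± 1.4 and 25.5 ± 4.1 in the same order. Among all regions of the same library, that height stood at a median percentile of 90.2 in the knockdown and 89.0 in the control. The authors' fold enrichment over the local background placed the same members at a median percentile of 51.5 ± 2.8 in knockdown libraries and 35.0 ± 3.7 in control libraries. By the mean of that percentile over the 6 libraries, 322 of 500 members lay under the middle of all regions and 0 above the 90th percentile. UBTF, the widest, stood at the 20.1, 18.4 and 13.4 percentile of fold in knockdown libraries and at 9.13, 7.43 and 11.3 in control libraries. Height was lower in every knockdown library than in any control library in 65.8% of members, beside 58.8% of all regions.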

How the data were processed

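ATAC-seq peak lists of 3 ATF4 knockdown and 3 control libraries of KMS-11 were used. The authors called peaks with MACS2 against hg38, per the submitters' processing notes. Not given in the sources used here are its version and settings, the aligner, read filters and any shift of reads for the Tn5 offset. Such a shift or an extension of reads would move the peak edges of a library alike. The lists are per library. The deposited fold is a ratio of pileup to local background. The deposited −log10 p and −log10 q are the caller's own within a library. The deposited score was not used beyond a check of the columns. The authors' positions and summit offsets are genome positions in bp.

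Peaks with a −log10 q of at least 2 were merged over the libraries, and a region was found in a library at 1 bp of overlap. Per region and library, covered bases and summits were counted. Width was compared as log2 covered bases, divided by the library's total covered length, with limma 3.58.1 (R 4.3.3, trend and robust settings, Benjamini-Hochberg adjustment over all 59853 regions). Summit number was compared as log2 over the 11028 regions with a mean of at least 3 summits. The script was tested on simulated data. The p-values measure the spread between libraries labelled as biological replicates. No read counts were used, and exact permutation tests of 3 libraries against 3 cannot give a p under 0.1. Pileups were recovered from fold and −log10 p as whole numbers (100% of summits within 0.01), and the most common local background served as depth.

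Genes came from RefSeq tables on GRCh38.p14 (hg38), of which the gene table has no strand, and exons were not told apart. Start sites came from the promoter table, which leaves out chromosome 8. Regions named are the 15 widest, up to 3 of each gene list, those past the threshold or else the 3 with the smallest p in a direction, the 3 with most and fewest summits, and 3 at each side of the limit. A region is named by the gene whose start it holds, else by a gene end, a gene around it or the nearest gene. A few regions that this rule names are not reported here, and they stay in the counts. The members and the lists were chosen with earlier results of these data known. Alternatives covered scaling, the q threshold, list length, a value of 200 bp added, membership, leaving out each library and a replicate block.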

Additional observations from a re-analysis of the deposited data

How the results depend on the processing

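Under no scaling, 13 members were called narrower and the median log2 width difference over the 500 was −0.084, against 0.206 with scaling. It was 0.0425 with all listed peaks, 0.147 with lists of equal length and 0.370 at a −log10 q of at least 5. At that threshold 376 members were called wider relative to total covered length, beside 24.6% of all regions. Scaled calls were 0 in both directions under all other settings, and leaving out each library gave medians of 0.191 to 0.224. Unscaled narrower calls ranged from 0 to 20 as each library was left out. Calls of fewer summits were 0 when scaled by total summits, 89 when regions without spread were left out and 22 to 33 as each library was left out. Without control 1, 2 or 3 they were 24, 28 or 22 of 500 members, beside 500, 636 or 475 of the 11028 regions. Calls of more summits were 0 to 3 as each library was left out. With summits of a −log10 q of at least 5 there was 1, beside 9 of 7949 regions in that fit. Other limits on membership shared 393 to 469 of the 500 regions. The scaled difference at ZIC2 was above 0 (0.057) with peaks of a −log10 q of at least 5, and below 0 otherwise. The cause of these moves was not tested.

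Same-numbered libraries were at most weakly alike. Their deviations from the group means correlated at 0.0162, 0.0136 and 0.0146, and those of differently numbered libraries at −0.00867 to −0.0054. With the replicate number as a block, limma called 0 members narrower and 0 wider when scaled and 0 narrower when unscaled. With that block, 28 of 500 members had fewer summits, beside 325 of the 11028 regions in the fit. Each library correlated best with its own number, a hint from the data and not the design. Depth was lower in every knockdown library, which limits what a narrower peak or a missing summit can show. The median height over background of all regions was lower too, at 16.3 in knockdown and 25.5 in control libraries (means, n = 3 each). How far that height goes with width and summit number was not tested.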

Other observations

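Of the 23 members that kept less than 80% of the control width, several had knockdown libraries that differed widely among themselves. The region inside PPP1R16B, a regulatory subunit of protein phosphatase 1, covered 1176, 1912 and 1797 bp in knockdown libraries and 2373, 2358 and 2284 bp in control libraries. ATXN2, the ataxin-2 gene, covered 1521, 1553 and 2444 bp in knockdown libraries and 2600, 2652 and 2522 bp in control libraries, so that knockdown 3 stood close to the controls. NBEA covered 1971, 1508 and 1493 bp in knockdown libraries and 2131, 2215 and 2347 bp in control libraries. None of these 3 passed in either fit, and they were singled out after their values were seen.

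At CTDSP2, a phosphatase of RNA polymerase II, the 2 wide regions differed in the share kept. The one over the start covered 2270, 2319 and 2235 bp in knockdown libraries and 2353, 2343 and 2359 bp in control libraries. The one inside the gene covered 1713, 1725 and 1932 bp in knockdown libraries and 2063, 2062 and 2241 bp in control libraries. The groups were apart at both, and the difference between the regions was not tested.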
